A study of Paracentrotus lividus with 54 samples.

Results

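Aristotle's lantern is the jaw apparatus of the sea urchin: a set of calcite teeth and ossicles held together by ligaments and moved by muscles. Its teeth are worn down by scraping and grow throughout life, so the organ keeps secreting mineral and the matrix proteins that shape it. Its muscles, connective tissue and skeleton-forming cells are all part of what is dissected as a lantern. RNA labelled as lantern from Paracentrotus lividus, the purple sea urchin of European coasts, was compared with RNA from ovaries, gut, bodywall and tubefeet, the hydraulic feet used for locomotion and attachment.

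Gene models were members where the lantern level lay above all 4 other adult tissues or below all 4, both after library-size scaling (CPM, each library's counts brought to a common total) and after TMM scaling, which rescales each library by the genes it shares with the others. By this rule 9527 of the 33922 gene models were members. No count was found in any adult library for 4898 models, so 29024 could be placed in an order. The identifiers (PL followed by digits) carry no gene names in the files used here. The labelled tissue could therefore not be checked against markers of mineral, muscle or nerve, and no gene is given a function below.

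The 5 adult libraries are labelled wild type (WT), adult stage, with 1 library per tissue. Their treatment label reads normal embryonic development and their cell type label reads whole organism, the same for all tissues. The sources used here do not say whether the tissues came from the same animal, or from how many. The same count table holds 17 libraries of embryos and larvae from egg to pluteus, 1 per stage, which served as data the rule did not use, as did peak lists of open chromatin (ATAC-seq) from embryos. The series has 54 samples in all, of which 22 are RNA libraries.

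With 1 lantern against 4 other tissues there is no replicate error. An exact permutation test cannot go below p = 0.2, so no test was run between tissues, and every adult difference below is a difference between single libraries. In such bulk RNA, fewer cells of a type and less RNA per cell cannot be told apart. The lantern library held 19196308 counts, against 36305776 in ovaries, 28977302 in gut, 14657193 in bodywall and 34229886 in tubefeet. The lantern had the fewest gene models at 1 CPM or more, 11189, while the other tissues had between 14041 and 17215. Its 100 most read models took 61.6% of its counts, compared with 36.8% to 56.2% elsewhere. Its TMM factor was 0.499, the lowest of the 5, so lantern levels were higher under TMM than under library-size scaling. Every count was even in the lantern, ovaries, gut and tubefeet libraries, while 52.4% of the nonzero counts in bodywall were odd. Intervals on counts were computed on halved counts where all were even, and they cover counting error only.

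Where both scalings had to give the same order, the lantern was lowest more often than highest, a balance that did not hold under every scaling. It was lower than all 4 for 7553 models, 26% of those compared, and higher than all 4 for 1974, or 6.8%. By the same rule the other adult libraries were lowest less often: ovaries were lowest for 3658, gut for 2729, tubefeet for 2265 and bodywall for 401. Tubefeet (8007) and ovaries (6893) were highest most often, while gut was highest for 2010, near the lantern's count.

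The balance of high and low depended on scaling. Under TMM alone the lantern was highest for 4878 models, 39.2% of those placed at either end, and under library size alone it was highest for 1974, or 16.4%. The median over all compared models of lantern minus the mean of the others was -0.22 on the log2 scale under TMM and -0.60 under library size. With DESeq2 size factors 5829 models were above and 6778 below, and with upper-quartile factors the balance turned, with 6602 above and 6158 below. Requiring both scalings left the "above" members to be set by library size and the "below" members by TMM. The number of models above all others rested on tubefeet: without that library it was 3829.

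**Figure D1:**
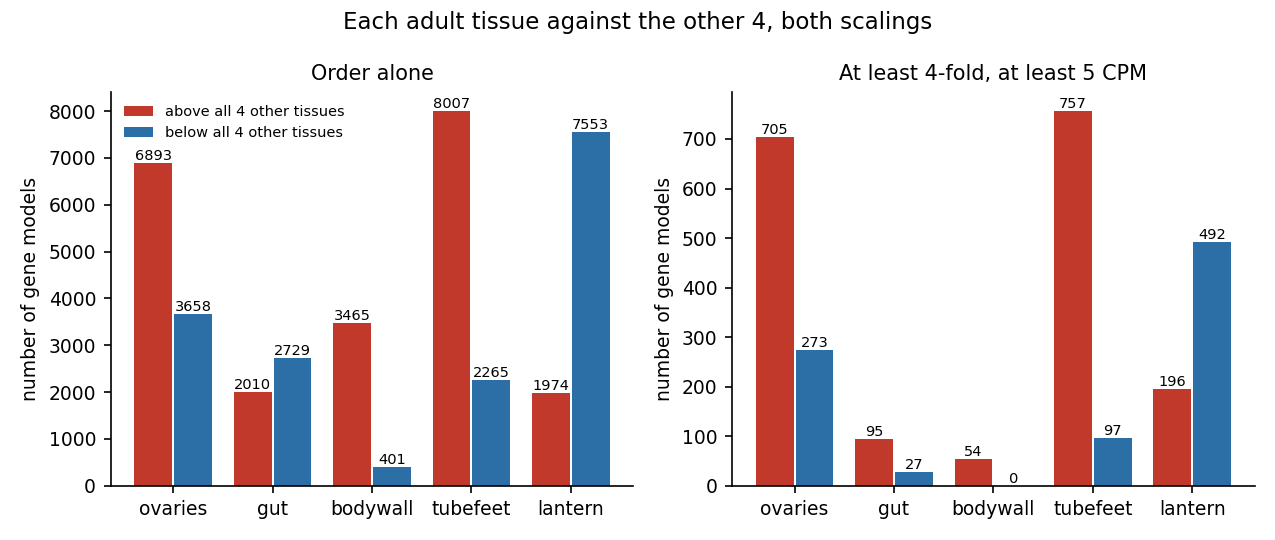
Number of gene models for which each adult tissue was above (red) or below (blue) all 4 other adult tissues under both scalings; left, by order alone; right, by a margin of at least 4-fold with at least 5 CPM. The vertical axes are linear counts of gene models and start at 0. The lantern's 7553 models below all others exceed those of any other tissue, and its 196 models at 4-fold above are fewer than the 705 of ovaries and 757 of tubefeet.

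Most members differed from the nearest tissue by little. The median margin was 1.42-fold among the 1974 models above and 1.71-fold among the 7553 below, after adding 0.5 CPM to both levels. Only 924 of the models above (46.8%) reached 5 CPM in the lantern, and 2090 of those below (27.7%) had at least 5 CPM in each of the other tissues. The description below is therefore centred on models separated by at least 4-fold. Those with at least 5 CPM in the lantern and at least 4 times the next tissue are called lantern-high. Those with at least 5 CPM in the lowest other tissue and a lantern level at most 1/4 of it are called lantern-low.

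There were 196 lantern-high models, 0.675% of those compared, and 492 lantern-low models, 1.7%. The larger number of low models held by library size alone, with 196 high and 1324 low, and not under the other scalings. TMM alone gave 563 high and 548 low, DESeq2 size factors 810 and 393, and upper-quartile factors 1042 and 287. By both scalings, lantern-low models outnumbered the corresponding models of ovaries (273), tubefeet (97), gut (27) and bodywall (0). Margins above reached much farther than margins below, which the measure itself limits. With 0.5 CPM added to both levels, a margin below is bounded by the level of the lowest other tissue. PL00388, with no count in the lantern, had a margin of 19.3-fold. The reach of the 2 sides is therefore not comparable. Of the models above all others, 122 led by 8-fold or more, 79 by 16-fold and 24 by 64-fold, with a largest margin of 1868-fold. Of the models below, 109 trailed by 8-fold, 9 by 16-fold and 0 by 64-fold, with a largest margin of 21.4-fold. The models nearest the 4-fold limit had margins of 4.04 just inside and 3.97 just outside on the high side, and of 4.003 and 3.999 on the low side. Without tubefeet 610 models were lantern-high, and without ovaries 874 were lantern-low, or 780 without gut.

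Most lantern-high models were low elsewhere, which the 4-fold rule favours. Their median level was 45.8 CPM in the lantern, where the quartiles were 17.3 and 152 CPM. In the other tissues their medians were 0.275 CPM in ovaries, 0.276 in gut, 0.409 in bodywall and 0.818 in tubefeet. Not all were low there: 10 had 100 CPM or more in tubefeet and 5 in ovaries, with maxima of 1526 and 1551 CPM. Together they took 7.22% of the lantern library and at most 0.551% of any other, the latter in tubefeet. In the lantern 61 of them exceeded 100 CPM, and the most abundant reached 16027 CPM.

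Lantern-low models showed the reverse picture, with broad levels outside the lantern. Their medians were 22.0 CPM in ovaries, 11.0 in gut, 27.4 in bodywall and 18.8 in tubefeet, against 0.625 CPM in the lantern. A level of 0.625 CPM in the lantern corresponds to 6 halved counts, and 13 of the 492 had no count there, where 3 halved counts would be 0.313 CPM. These models took between 0.838% and 1.96% of the other libraries and 0.0503% of the lantern's. The level distributions of both lists show that the lantern boxes do not touch those of the other tissues.

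**Figure D2:**
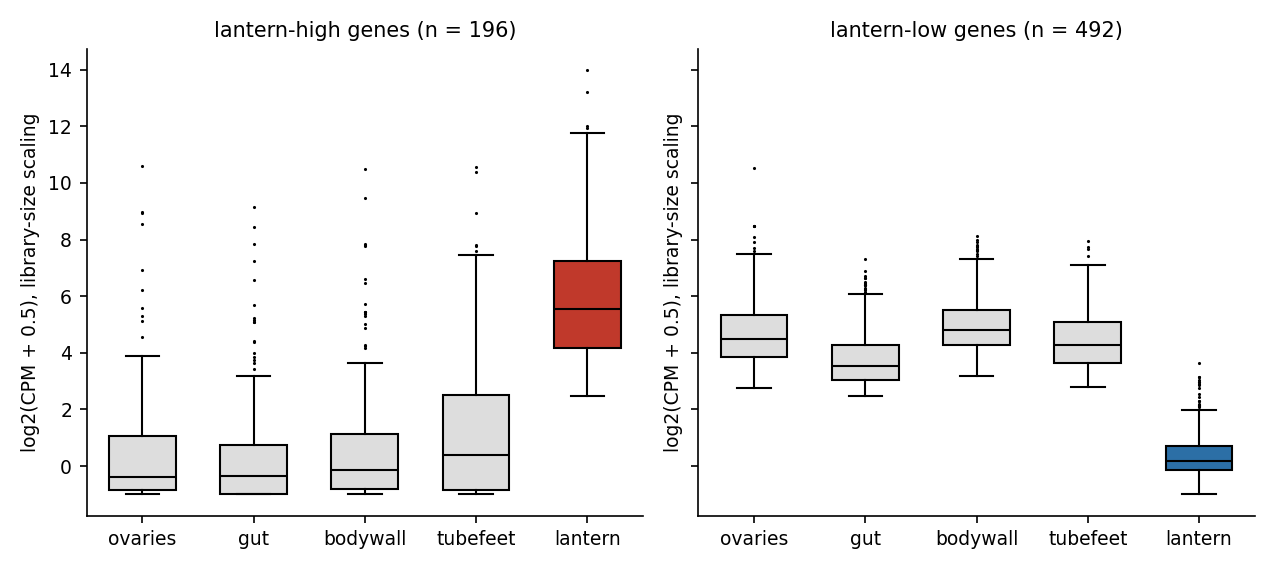
Levels of the lantern-high (left, n = 196) and lantern-low models (right, n = 492) in the 5 adult libraries, as log2(CPM + 0.5) with library-size scaling; boxes span the quartiles, lines mark medians, whiskers follow Tukey's rule and dots are models beyond them. The lantern box lies above all others on the left and below all others on the right, which is how the models were chosen.

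Few of the most abundant lantern transcripts were lantern-high, though a larger share of them than of all models compared. Of its 20 most read models, which took 29.0% of the library, 16 lay above all other tissues but 2 were lantern-high. Of the top 500, taking 82.8%, 198 lay above all others and 47 were lantern-high. Over all models compared, 6.8% lay above all others and 0.675% were lantern-high. Of the 5375 models at 5 CPM or more in the lantern, 196 were lantern-high. A high lantern level enters both this ranking and the choice of members. Among the 500 most read, 290 were also in the top 500 of tubefeet, 293 in that of bodywall, 259 in that of gut and 244 in that of ovaries.

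Tubefeet were the tissue nearest to the lantern for lantern-high models. The next highest level was in tubefeet for 87 of the 196 (44.4%) under library size and for 86 under TMM. Ovaries came next for 42, gut for 33 and bodywall for 28 under library size, and 6 had no count outside the lantern. Under TMM the order after tubefeet changed, with gut for 52, ovaries for 39 and bodywall for 13. Among all 5375 models at 5 CPM or more in the lantern, tubefeet were the highest other tissue for 29.7% and ovaries for 34.2%. In the opposite direction the lantern was the next tissue for 305 of the 757 tubefeet-high models (40.3%). For ovaries-high and gut-high models the next tissue was bodywall, with 93.2% and 96.8%. The bodywall library was next for 14.3% of lantern-high models by library size and 6.63% under TMM.

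Over all genes the lantern was not closest to tubefeet. Spearman's rho of lantern levels with other tissues was taken over the 29024 models with a count in any adult library. Of these, 9159 had no count in the lantern. The rho was 0.727 for bodywall, 0.705 for gut, 0.697 for tubefeet and 0.643 for ovaries. These are correlations across genes of single libraries that share the lantern. Fold differences were counted among models at 5 CPM or more in at least 1 library of the pair. By TMM the lantern was at least 4-fold higher than ovaries for 2915 of 11752 models (24.8%) and lower for 3810 (32.4%). Against gut, 19.1% were higher and 26.8% lower. Against bodywall, 17.6% were higher and 25.6% lower, and against tubefeet, 20% and 27.8%. In each of these 4 comparisons more models were lower than higher, under TMM and by library size; the other scalings were not applied to these pairs.

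Single models show how wide the separation could be. They were taken as those with the largest margin at 20 CPM or more in the lantern, or in the lowest other tissue, under both scalings, and none overlapped another gene model on either strand. PL24104 lies on Scaffold_674:17537014-17537669 (+ strand, coordinates of the authors' assembly), with 1 exon record of 656 bases. It had 35238 counts in the lantern, or 1836 CPM (95% Poisson interval 1809 to 1863). It had 0.483 CPM in gut (0.194 to 0.995), 0.0584 CPM in tubefeet, and no count in ovaries or bodywall. Its lantern level was 3799 times that in gut. It was also nearly absent from development, with no count in 13 of the 17 stages and a highest level of 0.337 CPM in the pluteus larva.

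PL01497 lies on Scaffold_3425:28820204-28836182 (- strand), with 6 exon records and 2332 exon bases. Its lantern level was 4150 CPM (4109 to 4191), against 2.15 CPM in ovaries (1.53 to 2.94). Tubefeet had 0.584 CPM, bodywall 0.546 and gut 0.345, so the lantern exceeded ovaries 1932-fold and every other tissue by more. In development it stayed between 0.316 CPM and 4.31 CPM, the latter in the blastula. Its change from the first 4 to the last 4 stages did not pass the test (log2 -0.50 ± 0.75 SE, edgeR adjusted p = 0.583).

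PL04867 had the largest margin below among models with 20 CPM or more in all other tissues under both scalings. It lies on Scaffold_2100:45317075-45325834 (- strand), with 11 exon records and 1797 exon bases. Its level was 1.98 CPM in the lantern (1.19 to 3.09), 44.6 in gut, 66.5 in ovaries, 76.3 in tubefeet and 107 in bodywall. By library size the lantern was thus 22.5-fold below gut. The margin of PL04867, with 0.5 CPM added and as the smaller of the 2 scalings, was 12.2-fold, that under TMM. In development its highest level was 65.9 CPM in the early blastula, and its lowest by far was 3.90 CPM in prism. The difference between late and early stages did not pass the test (log2 -0.45 ± 0.33 SE, edgeR adjusted p = 0.247).

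PL10559 lies on Scaffold_174:28759634-28860729 (- strand), spanning 101096 bases with 18 exon records and 2646 exon bases. Its lantern level was 3.33 CPM (2.28 to 4.71), against 104.6 in ovaries, 117 in gut, 211 in tubefeet and 255 in bodywall. By library size the lantern was 31.4-fold below ovaries, the lowest of the others. The margin of PL10559, taken as for PL04867, was 11.8-fold, again that under TMM. Its highest developmental level was 1253 CPM at the 128-cell stage, and prism was again lowest at 15.9 CPM. It fell from early to late stages (log2 -2.01 ± 0.40 SE, edgeR adjusted p = 0.000291).

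**Figure D3:**
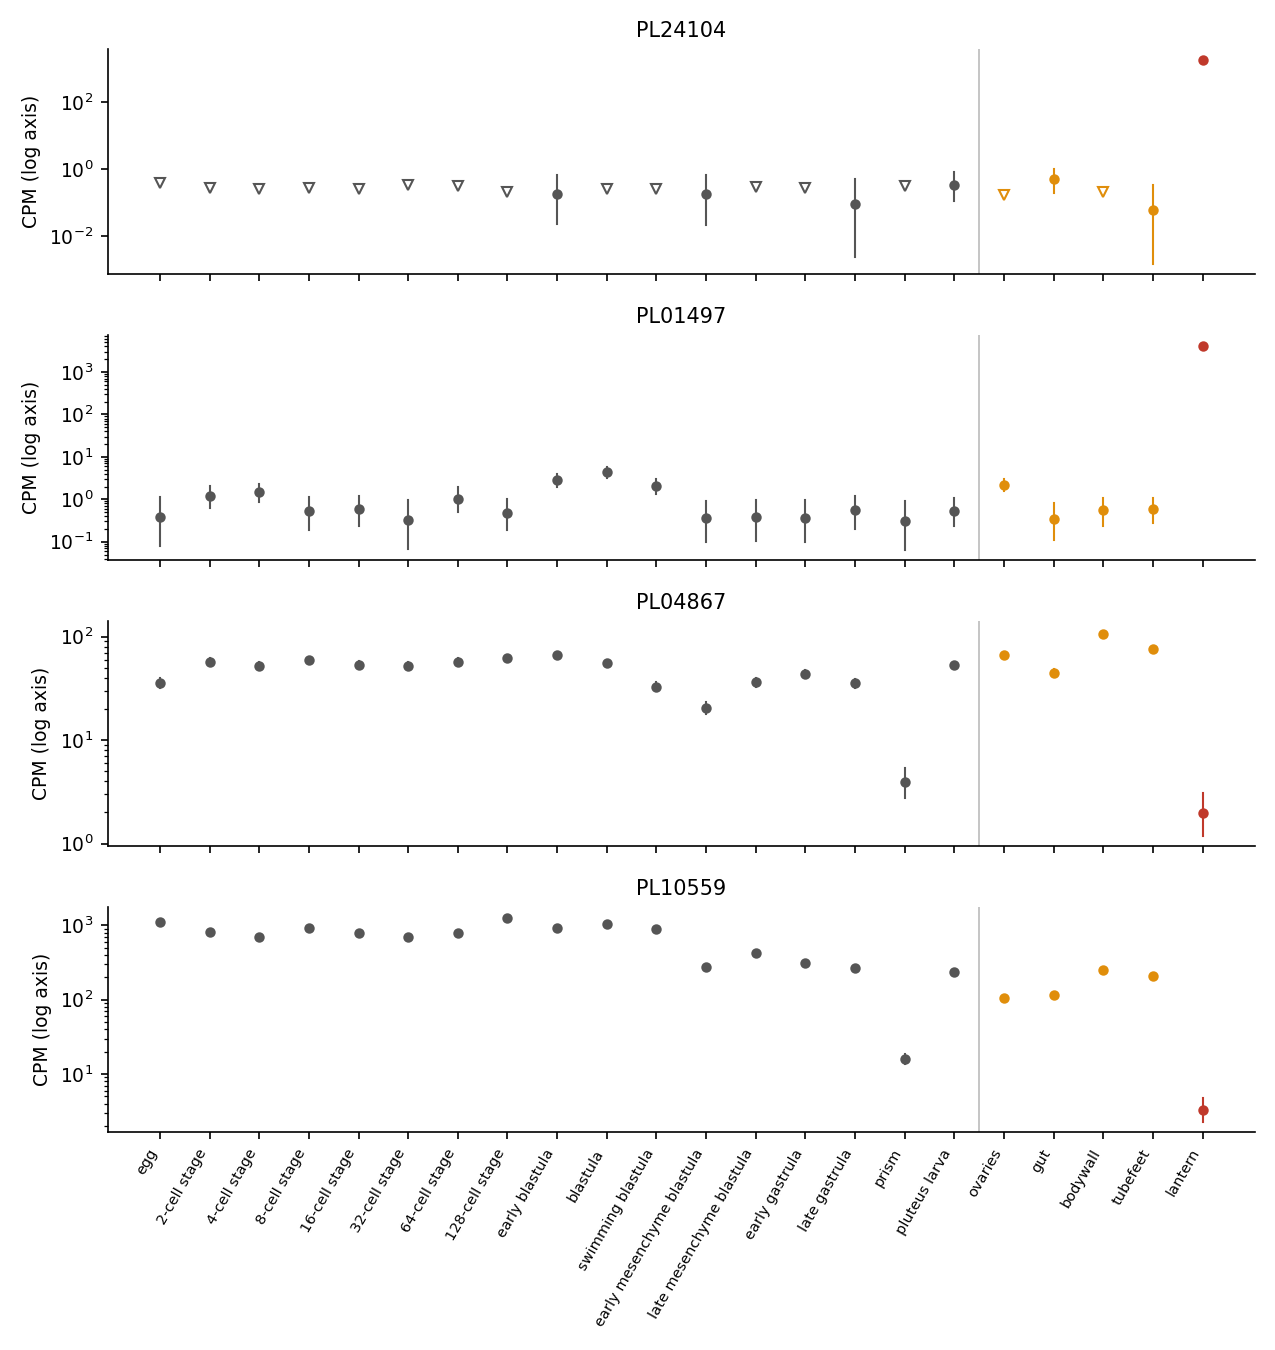
Levels of 4 gene models in all 22 RNA libraries on a logarithmic CPM axis, developmental stages in grey, adult tissues in orange and the lantern in red. Bars are 95% Poisson intervals. Open triangles mark libraries with no count, drawn at the level of 3 counts, or of 3 halved counts where all counts were even. PL24104 and PL01497 stand high in the lantern alone, while PL04867 and PL10559 are lowest in the lantern and next lowest in prism.

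The developmental libraries give a reading of these models that the rule did not use. Many lantern-high models were low in the embryo and larva, as were many models high in gut or tubefeet. Of the 196, 75 (38.3%) stayed under 1 CPM at every stage and another 50 (25.5%) never reached 5 CPM. Among the 15463 models with 5 CPM or more in some adult tissue, called adult-expressed below, 9.09% stayed under 1 CPM throughout, as did 7.46% of the 5375 models at 5 CPM or more in the lantern. The shares were 37.9% of gut-high and 29.5% of tubefeet-high models, so a low level in development was not particular to the lantern list. The other 121 lantern-high models reached 1 CPM at some stage. The lantern level was at least 4 times that of every stage for 145 of the 196 (74.0%), against 8.02% of adult-expressed models. This count uses the lantern level by which the 196 were chosen.

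Lantern-high models first reached 5 CPM at times spread over development. Of the 196, 21 first reached 5 CPM between egg and 128-cell stage, 17 at early to swimming blastula, 11 at mesenchyme blastula, 10 at gastrula and 12 at prism or pluteus. In this order these were 10.7%, 8.67%, 5.61%, 5.1% and 6.12% of the list. Of the 5375 models at 5 CPM in the lantern the shares were 66.5%, 5.95%, 3.68%, 2.98% and 3.78%. The share at 1 CPM or more was 19.4% in the egg and 14.8% at the 128-cell stage, then 29.6% at the early blastula and 40.8% in prism. The same share among the 5375 models lay between 72.2% and 86.2% at every stage. Among the 121 models that reached 1 CPM, the highest level lay in the pluteus for 26 (21.5%), in prism for 25 (20.7%) and in the early mesenchyme blastula for 13 (10.7%), the stage at which skeleton-forming mesenchyme cells enter the blastocoel. Of the 5375 models at 5 CPM in the lantern, those that reached 1 CPM had these maxima for 21.7%, 11.3% and 6.82%, and adult-expressed models for 18.7%, 4.87% and 3.51%. The pluteus share was thus near the background.

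The change from the first 4 to the last 4 stages was tested with edgeR's quasi-likelihood test on a smooth curve over stages, fitted to the whole table, with Benjamini-Hochberg adjustment over 22940 models. A call needed an adjusted p below 0.05 and a log2 change of at least 1. Of the 196 lantern-high models 87 rose, 6 fell, 41 were tested without a call and 62 had too few counts to be tested. Over all tested models 36.5% rose and 19.6% fell. Of the whole lantern-high list 44.4% rose, against 45.5% of the 5375 models at 5 CPM in the lantern and 24.7% of all models. The rising share was thus near that of models read in the lantern. The share that fell was 3.06%, against 13.0% and 13.3%. A model that is off in early stages enters the test only through its late counts, so the 87 are given as a count of all members and not as support for a direction. Of gut-high models 43 of 95 rose, and of tubefeet-high models 227 of 757. Without the egg library 67 lantern-high models rose, and the share over all tested models went down as well, to 25.4%.

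Lantern-low models were mostly present from the start, as were other models read in all 4 of the other tissues. The comparison for them is the 4793 models with at least 5 CPM in each of those 4 tissues under both scalings, called broadly expressed here and added after the values were seen. A level of 5 CPM was reached between egg and 128-cell stage by 470 lantern-low models (95.5%) and by 92.3% of the broadly expressed ones. All 492 were tested, 84 rose (17.1%) and 169 fell (34.3%). Of the broadly expressed models 34.9% rose and 22.4% fell, and over all tested models 36.5% and 19.6%. The highest level lay at the 128-cell stage for 163 lantern-low models (33.1%), in the pluteus for 90 (18.3%) and at the 8-cell stage for 89 (18.1%), compared with 11.2%, 17.2% and 7.27% of broadly expressed models. Without the pluteus library 49 rose and 216 fell, when 30.5% of all tested models rose and 21.3% fell.

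**Figure D4:**
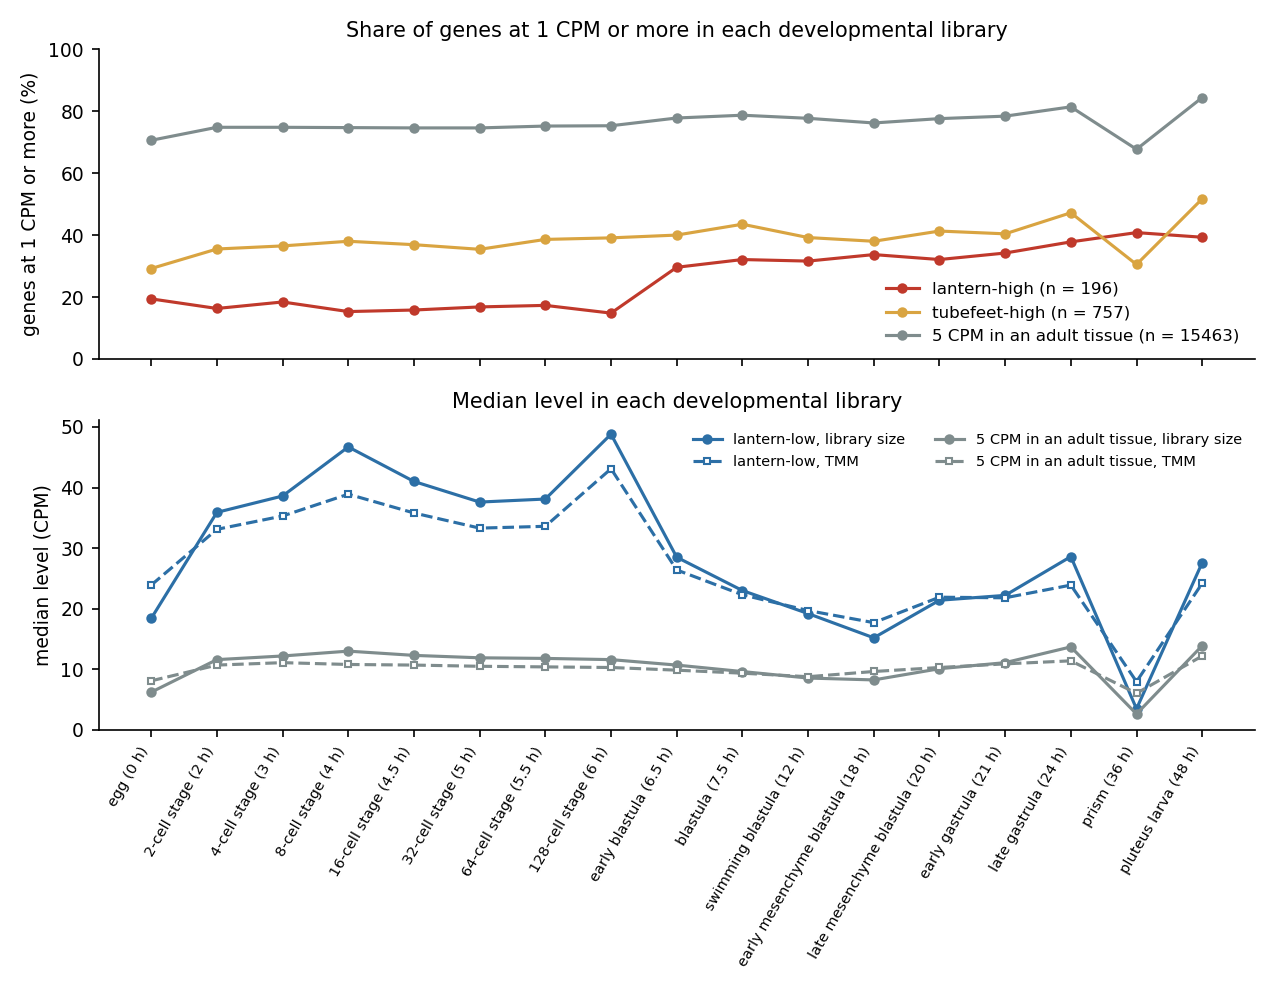
Levels over 17 developmental libraries in order of age (hours after fertilisation in brackets). Top, share of lantern-high, tubefeet-high and adult-expressed models at 1 CPM or more; bottom, median level of lantern-low and adult-expressed models in CPM, with library-size scaling (filled circles) and TMM (open squares). The lantern-high share goes from 14.8% at the 128-cell stage to 40.8% in prism. The lantern-low median is 3.48 CPM in prism between 28.6 and 27.6 CPM on either side by library size. Under TMM it is 7.97 CPM between 23.9 and 24.2 CPM.

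The prism library stood apart from its neighbours, and lantern-low models were more often low in it than other models were. By library size the lantern-low median was 28.6 CPM in late gastrula, 3.48 CPM in prism and 27.6 CPM in pluteus. Under TMM the dip was smaller, with 23.9, 7.97 and 24.2 CPM. Broadly expressed models dipped as well, with 47.2, 10.8 and 46.8 CPM by library size and 39.5, 24.9 and 41.1 under TMM. Prism was the lowest of the 17 stages in both scalings for 316 of the 492 (64.2%), compared with 32.8% of broadly expressed and 29.3% of adult-expressed models. Prism was at least 4-fold below both late gastrula and pluteus for 109 of the 492 (22.2%), against 9.1% of broadly expressed, 7.77% of adult-expressed and 3.88% of all models. These 109 made up 8.28% of all models low in prism by this margin, so most of those were not lantern-low. For the lantern-high models the corresponding counts were 0 below and 4 above, the latter against 0.209% of all models. This comparison was added after the values were seen.

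The likeness of lantern and prism extended beyond the 2 lists. Over 11454 models, Spearman's rho between the lantern's log2 difference from the other adult tissues and prism's difference from its neighbouring stages was 0.62. The same value was -0.07 for ovaries, -0.21 for gut, -0.31 for tubefeet and -0.33 for bodywall. These points are genes, and the 5 adult differences share libraries, so no p is given. Like the lantern, prism had the lowest TMM factor of its set (0.436, the other stages 0.769 to 1.20) and the largest share of counts in its 100 most read models (49.4%, the others 24.6% to 38.2%). The part of these library properties in the lantern-low list, and in the prism levels, was not tested. Without the prism library 94 lantern-low models rose and 170 fell, and 73 lantern-high models rose and 10 fell, when 33.9% of all tested models rose and 22.1% fell.

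Open chromatin at the gene start was less frequent for lantern-high models than for other models read in the lantern. A start peak was counted where a peak summit lay within 1 kb of the annotated start, in the 5 distinct ATAC-seq lists of 16-cell, blastula, gastrula, prism and pluteus. Of the lantern-high models 64 (32.7%) had a start peak in at least 1 list, against 59.9% of the 5375 models at 5 CPM in the lantern, 55.1% of adult-expressed models and 45.2% of all models. By order alone, without the margin, the difference from all models was gone, with 45.1% of the 1974 models above all other tissues. Of the lantern-low models 317 (64.4%) had a start peak, against 68.6% of broadly expressed models, so they did not stand above models of like breadth. The shares of lantern-high models were 7.65% at 16-cell, 24.5% at blastula, 27.6% at gastrula, 25.0% at prism and 9.18% at pluteus. Those of lantern-low models were 8.54%, 57.3%, 63.8%, 59.8% and 48.4%.

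Lists differ in length, from 30683 peaks at 16-cell to 154157 at gastrula, so shares are comparable between gene lists at a stage and not between stages. Within the lantern-high list, start peaks went with developmental level. Of the 75 lantern-high models under 1 CPM throughout development 13 had a start peak (17.3%), and of the other 121 models 51 had one (42.1%). The same split of adult-expressed models gave 26.6% and 57.9%. The exact 95% interval of the lantern-high share in the first class, 9.57% to 27.8%, holds the adult-expressed share, while that in the second, 33.2% to 51.5%, lies below it. These intervals cover counting error over genes only. The second classes are not matched for level: 50 of the 121 lantern-high models never reached 5 CPM in development, against 1715 of 14058 adult-expressed models. The part of level in this difference was not tested. Of tubefeet-high models 36.9% had a start peak in some list, and of gut-high models 43.2%. None of the 4 models described singly had a start peak in any list.

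**Figure D5:**
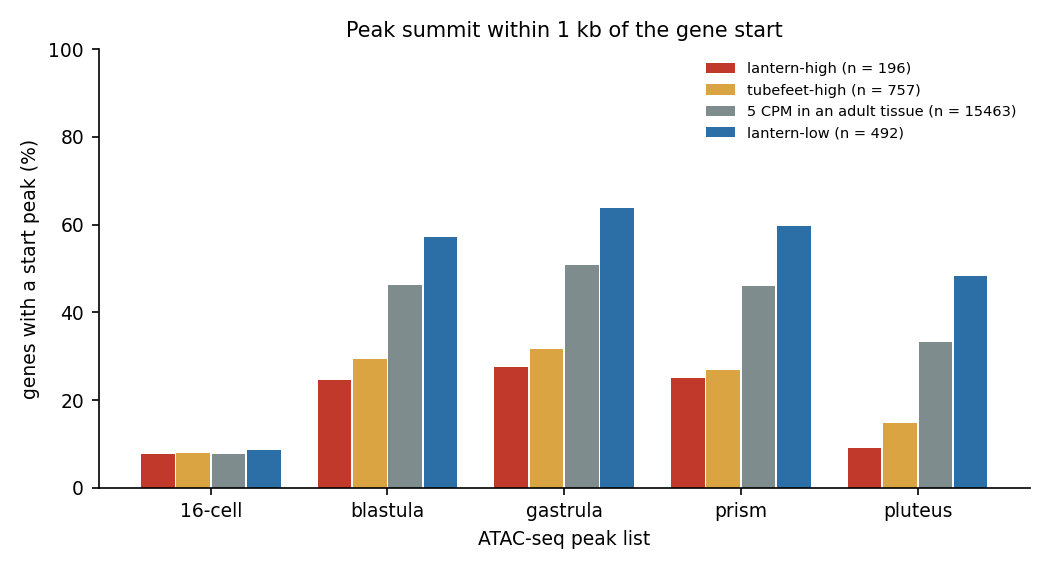
Share of gene models with an ATAC-seq peak summit within 1 kb of the start, in each of 5 embryonic peak lists, for lantern-high, tubefeet-high, adult-expressed and lantern-low models (bars, percent of models, axis from 0 to 100). From blastula to pluteus the lantern-high bars are the lowest and the lantern-low bars the highest, while all 4 groups lie between 7.65% and 8.54% at 16-cell.

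Lantern-high models had fewer exon records than the ovaries-high, gut-high and tubefeet-high models, for which the medians were 7, 7 and 8. Their medians were 5 exon records, 1483 exon bases and a genomic span of 7.04 kb, against 8 records, 2043 bases and 13.8 kb for adult-expressed models and 9 records, 2739 bases and 13.9 kb for models at 5 CPM in the lantern. Exon lengths of gut-high (1425 bases) and ovaries-high models (1512 bases) were near theirs. Lantern-low models had 13 records, 2203 bases and 21.9 kb, and broadly expressed models 13 records, 2946 bases and 17.7 kb. The share of models with a single exon record was 3.57% for lantern-high and 5.45% for adult-expressed models. Of adult-expressed models with 2 exon records 2.93% were lantern-high, and of those with 11 to 20 records 0.752%. For lantern-low models the same classes gave 0.836% and 5.26%.

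The median lantern difference itself moved with exon number. It was -0.02 (log2, lantern minus the other tissues) for models with 2 exon records and -0.99 for those with 11 to 20. Prism minus its neighbouring stages moved along with it, at -0.27 and -0.84. The part of gene structure in the lists was not tested.

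Lantern-high models were spread over the assembly with some local runs. Of the 196, 52 (26.5%) had another lantern-high model as the next gene model on the scaffold, in 23 runs, 6 of them with 3 models. The same share was 35.5% for tubefeet-high, 33.7% for gut-high, 16.3% for ovaries-high and 13.0% for lantern-low models. The lists differ in size, which such a share depends on. The scaffold with the most lantern-high models was Scaffold_3425, which held 23 of them, 2.93% of its 784 adult-expressed models.

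The neighbourhood of PL01497 was on that scaffold, and it was looked at after its values were seen. Scaffold_3425:28640471-28899804, 259 kb long, holds 12 gene models. Of these, 8 were lantern-high and 11 lay above all other adult tissues, against 0.675% and 6.8% of all models compared. The stretch was picked around PL01497, and its upper edge is the end of a run of lantern-high models. These counts therefore do not measure clustering. The 8 lantern-high models of the stretch reached between 5.83 and 4150 CPM in the lantern. No other adult tissue exceeded 2.15 CPM for any of them, and no developmental stage exceeded 4.31 CPM. Neighbouring models of like sequence can share reads, and whether these do cannot be read from the count table, so levels of single members of this region are uncertain. Another run, on Scaffold_2974:5660788-5685064, held 3 models on 1 strand with 11.6 to 2003 CPM in the lantern and at most 1.17 CPM in another adult tissue.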

How the data were processed

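The authors deposited raw read counts per gene model for 22 RNA libraries, 1 per stage or tissue. Per the labels' protocols, Trizol was used to extract total RNA, and libraries kept strand and were sequenced from both ends. Per the submitters' processing notes STAR 2.5.2b and featureCounts 1.6.1 were used, and per the file headers counting used strand option 1. No source used here says whether these reads run along the transcript or against it, so a count may reflect antisense RNA, which was not tested. Coordinates follow the deposited count table and start at base 1; for the build, none was given in the sources used here. The deposited ATAC-seq peak lists give a score and a -log10 p-value per peak, made by the authors (Bowtie2 2.4.1 and Genrich, per the submitters' processing notes). The score served only to rank peaks in an alternative. From their names the lists were read as 1 call per stage over pooled samples. The early and late blastula lists were identical and used once, leaving 5 of 6.

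Samples were grouped by their labels, and libraries ranged from 14657193 to 36305776 counts. Adult libraries were scaled by library size and by TMM (edgeR 4.0.16, R 4.3.3), and levels in CPM use library size unless TMM is named. Adult tissues were compared by order and by a margin of 4 with a prior of 0.5 CPM and a minimum of 5 CPM, with no test. Gene models were named by margin: the first 2 in each direction with at least 20 CPM under both scalings, in the lantern (high) or in the lowest other tissue (low), taking the smaller margin of the 2 scalings. The developmental test used edgeR's quasi-likelihood fit (TMM, filterByExpr, a natural spline of 4 degrees of freedom over the ordered stages) on 17 libraries, leaving 12 residual degrees of freedom. With 1 library per stage, p-values measure scatter about the curve, which may be technical. On simulated counts for 22940 models this contrast, at an adjusted p below 0.05, called 54 of 100 models given a 4-fold change from first to last stage. It called 3 of 100 given a 2-fold change and none of 21643 left alone. The changes ran evenly over the stages, so the contrast itself was log2 1.625 and 0.812. Changed models had a mean above 100 counts, and scatter followed the dispersion fitted by the same test. The simulation therefore does not describe lantern-high models with few counts in development. The members and lists were chosen with earlier results of these data known. Alternatives covered scaling (including DESeq2 1.42.0 size factors), margin, minimum level, prior, single libraries left out, peak windows and equal numbers of peaks. The halving of counts was chosen after seeing that they were even. CUT&Tag samples were not analysed here.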

Additional observations from a re-analysis of the deposited data

How the results depend on the processing

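Of the recomputed main values 128 were classed as unchanged and 34 as moved. Of the other recomputed values, for start peaks at single stages and margins of single models, 40 were unchanged and 48 moved. The unchanged class was wide: it held 10037 models below all others by library size alone, against 7553. No single value changed sign, but the balance of high and low models turned with scaling. Models above all others numbered 4878 with TMM alone, 5829 with DESeq2 size factors and 6602 with upper-quartile factors. Lantern-high models then numbered 563, 810 and 1042, and lantern-low models 548, 393 and 287, or 1324 by library size alone. A margin of 2 gave 353 high and 1241 low, and a margin of 8 gave 122 and 109. A minimum of 1 CPM gave 954 low and one of 20 CPM 63, while a prior of 2 CPM gave 175. Leaving out each adult library in turn gave 2071 to 3829 above, 7276 to 9703 below, 202 to 610 lantern-high and 384 to 874 lantern-low. Without ovaries and bodywall together, an alternative chosen after seeing the data, there were 295 high and 1052 low.

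Of tested lantern-high models 4.48% fell in development, 7.55% with halved counts (chosen after seeing the data) and 6.72% with library-size scaling. Over all tested models these shares were 19.6%, 25.1% and 21.8%. Leaving out each stage gave 3.03% to 7.69% falling and 50.8% to 66.7% rising among tested lantern-high models. Over all tested models the same settings gave 18.2% to 22.7% falling and 25.4% to 36.6% rising. Models off in early stages enter the test only through late counts, so the lantern-high shares are no support for a direction. For lantern-low models 9.96% to 19.1% rose and 33.7% to 43.9% fell. A start peak in any list was found for 21.9% of lantern-high within 500 bp, 47.4% within 2 kb, 14.8% with equal numbers of top peaks and 45.1% of models above by order alone, when all models had 35.5%, 57.4%, 24.0% and 45.2%. The lantern-low shares were 57.3%, 73.0%, 45.3% and 56.8%. Within 50 kb, 38.8% of lantern-high models had another, against 70.4% of models at 5 CPM in the lantern. Such a share depends on list size, 196 against 5375 models, so these values do not compare clustering. The cause of the shifts between settings was not tested. No paired analysis was possible because each tissue and stage has 1 library. With 3 halved counts worth 0.313 CPM in the lantern, low lantern levels have wide counting intervals.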
